A study of Mus musculus with 12 samples.

Results

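The genes examined were 37 genes of the urea cycle and of amino acid catabolism, listed by name, of 54232 genes in a count table of mouse liver RNA. They fell into 8 urea cycle genes, 6 genes of glutamine, glutamate, aspartate and alanine metabolism, 4 of histidine, 3 of serine, glycine and glyoxylate, 5 of tyrosine, 4 of tryptophan, 2 of proline and 5 of branched chain amino acid and lysine breakdown. Liver mRNA was sequenced from 12 male C57Bl/6J littermates, 10 weeks of age, chow-fed and fasted for 4 h before sacrifice. The 6 WT mice carried Marchf6 fl/fl without AlbuminCre, and the 6 Marchf6 LKO mice (LKO) carried Marchf6 fl/fl with AlbuminCre, so that both groups shared the floxed alleles and LKO mice also carried Cre. Marchf6 encodes an E3 ubiquitin ligase of the endoplasmic reticulum. Cre under the albumin promoter acts in hepatocytes, and the other cells of the liver keep the gene. Library numbers ran through the WT mice first and the LKO mice second, so that library order and genotype cannot be told apart.

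The liver removes nitrogen from amino acids before their carbon enters gluconeogenesis or oxidation. Transaminases and dehydrogenases pass amino groups to glutamate and aspartate, and the urea cycle of the periportal hepatocyte, split between mitochondria and cytosol, joins ammonia and aspartate nitrogen into urea. Many of these genes are induced by glucagon, glucocorticoids and fasting, and several of them serve as markers of periportal hepatocytes. The comparison of LKO with WT livers asked whether transcripts of these pathways differed after loss of hepatocyte Marchf6.

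Total counts ranged from 14860414 to 22111926 per liver, and the 17509 genes that reached 3 reads in 6 livers or more were tested. All 37 listed genes passed, with 132 reads in the lowest liver of the lowest gene and 136161 in the highest of the highest. The libraries held hepatocyte RNA, with Alb at a mean of 76079 CPM (reads of a gene per 1000000 reads after TMM scaling) in WT. Umod, Slc12a1 and Slc34a1 of kidney and Prss1 and Cpa1 of pancreas were under the filter on low counts. Cela1 of the same marker list was detected, at means of 21.3 CPM in WT and 10.9 CPM in LKO. Marchf6 itself ranged from 226 to 247 CPM in WT and from 204 to 249 CPM in LKO (log2 fold change -0.09 ± 0.06, SE, adjusted p = 0.585 by edgeR's quasi-likelihood test). A single exon is removed, and the gene total does not check the labels. Over all genes 75 passed an adjusted p of 0.05, 48 of them higher and 27 lower in LKO.

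None of the 37 genes passed that threshold by edgeR's quasi-likelihood test, against 0.428% of all genes tested. At an unadjusted p under 0.05 there were 3 of them, Kmo, Otc and Slc25a15, all lower in LKO, which is 8.11% of the genes listed against 11.7% of all genes tested. Limma voom called none of the 37, against 0.485% of all genes tested, and DESeq2 called 1, Kmo, which is 2.70% against 2.00% of all genes tested. The log2 fold changes ran from -0.30 to 0.19, with 28 genes lower and 9 higher in LKO, and their median was -0.09 against 0.00016 over all genes tested. Abundant genes as a whole were shifted the same way. Of the 1381 genes with a mean of 100 CPM or more, a bound chosen after the values were seen, 66.3% were lower in LKO, their median log2 fold change was -0.06 and 20.4% had an unadjusted p under 0.05. The 32 listed genes at that level had 24 lower (75%), a median of -0.10 and 9.38% at that p. The order of the medians depended on the bound. At 200 CPM or more it was -0.10 for the listed genes and -0.09 for all genes. At 500 CPM or more it was -0.04 for the 15 listed genes and -0.11 for all genes, with 66.7% and 74.2% lower. The 95% intervals lay within -0.5 and 0.5 on the log2 scale for 31 genes and within -1 and 1 for all 37. The plot of fold changes shows each gene with its interval.

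**Figure D1:**
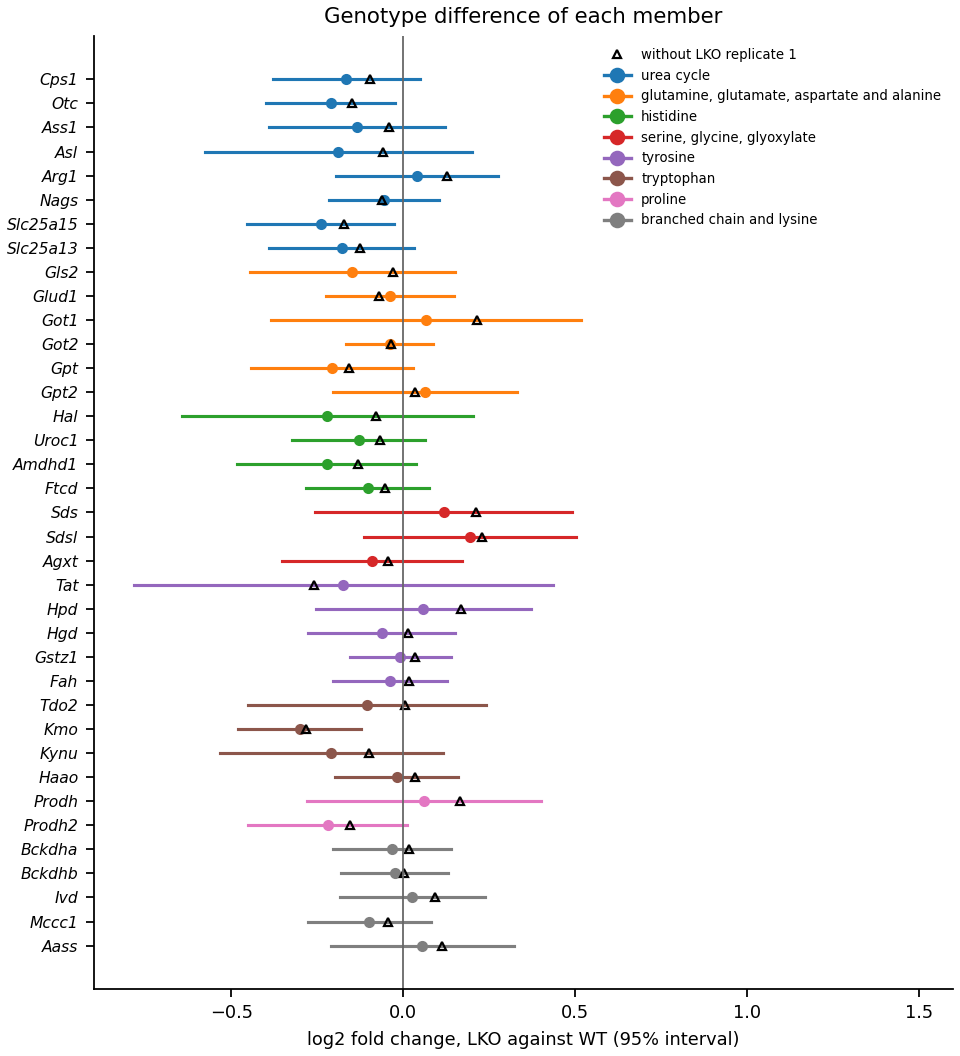
The horizontal axis is the log2 fold change of LKO against WT, each row is one gene, points are edgeR estimates with 95% intervals coloured by pathway, and open triangles are the estimates without LKO replicate 1. Points lie between -0.30 and 0.19, and the intervals of Otc, Slc25a15 and Kmo are those that leave out 0.

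**Figure D2:**
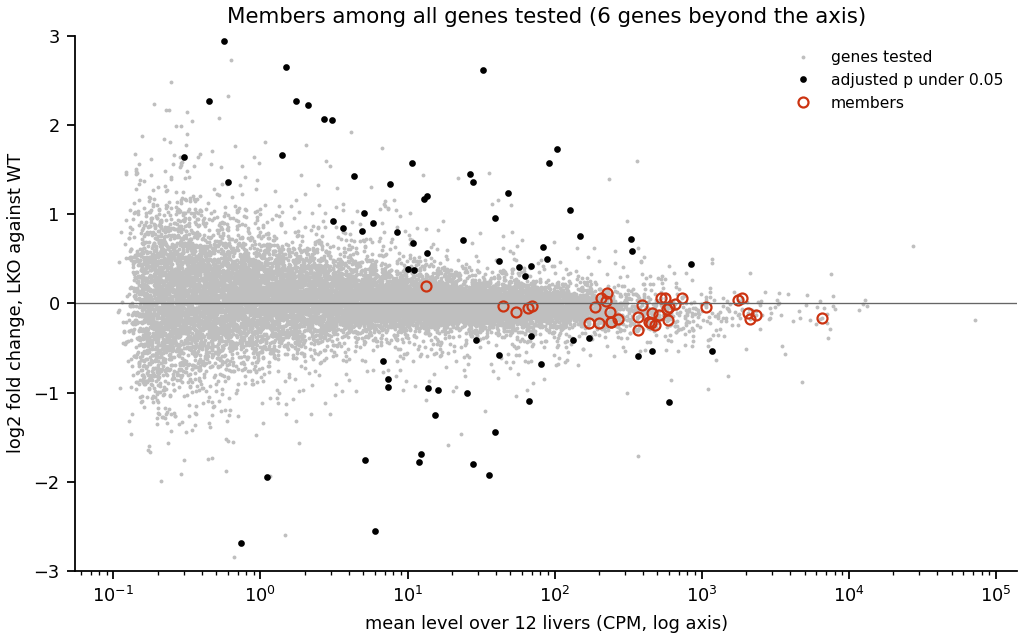
Log2 fold change of LKO against WT is plotted over the mean level of the 12 livers in CPM on a log axis, with all genes tested in grey, those with an adjusted p under 0.05 in black and the 37 listed genes as open circles (6 genes lie beyond the axis limit of 3). None of the open circles is a called gene, and those at 100 CPM or more have a median of -0.10 where all genes of that level have -0.06. At 500 CPM or more the medians are -0.04 and -0.11.

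One liver stood apart in these pathways. LKO replicate 1 held the lowest value of the 12 livers in 26 of the 37 genes and the highest in none, and its median log2 deviation from the gene means was -0.37. The other 11 livers had medians between -0.08 and 0.16, the highest of them in WT replicate 3. Among 1349 other genes at 100 CPM or more, LKO replicate 1 was the lowest liver in 30.7%, with a median deviation of -0.07. The 37 genes took 2.19% of the counts of LKO replicate 1 and between 2.55% and 3.13% in the other livers. Its summed level was below every other liver for the urea cycle (8595 against 11396 to 14312 CPM), histidine (1076 against 1406 to 1911 CPM) and tryptophan genes (1960.3 against 2592 to 3631 CPM), and also for the serine, proline and branched chain groups. It was inside the range of the others for the glutamine, glutamate, aspartate and alanine genes (2835 in 2589 to 3552 CPM) and the tyrosine genes (5226 in 4597 to 7719 CPM). Outside the list, the pericentral markers (9299 against 10146 to 13066 CPM) and the amino acid transporters (4062 against 4802 to 6017 CPM) were also lowest in this liver. So were the 60 further tested genes of the same pathways (11544 against 12353 to 14415 CPM) and the regulators (2396 against 2501 to 3104 CPM). Among the further genes, those of urea, arginine, glutamine and glutamate were inside the range (3021 in 2852 to 3658 CPM). The summed periportal markers outside the list (9676 in 8693 to 12271 CPM) were inside the range of the others. Single genes dominated both marker sums in LKO replicate 1, with Pck1 at 5423 CPM of the periportal and Cyp2e1 at 4983 CPM of the pericentral. Counted by marker, this liver was the lowest of the 12 for 9 of 14 periportal and 6 of 17 pericentral markers. In the same liver the summed marker levels of 3 other cell types were the highest of the 12, at 130.5 CPM for cholangiocytes (34.3 to 64.4 CPM elsewhere), 321 CPM for stellate cells (179 to 292 CPM) and 241.2 CPM for endothelial cells (181 to 240.9 CPM), while the 8 hepatocyte markers summed to 97252 CPM, inside the range of 89788 to 115886 CPM. Of the cholangiocyte sum in LKO replicate 1, Spp1 alone held 114 CPM. In bulk liver, fewer cells of a type and less RNA per cell cannot be told apart, and the part of either in the low values was not tested. Without LKO replicate 1, 21 of the 37 genes were lower in LKO, the median log2 fold change was -0.04 and 1 gene, or 2.70%, had an unadjusted p under 0.05, against 11.9% of all genes tested.

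**Figure D3:**
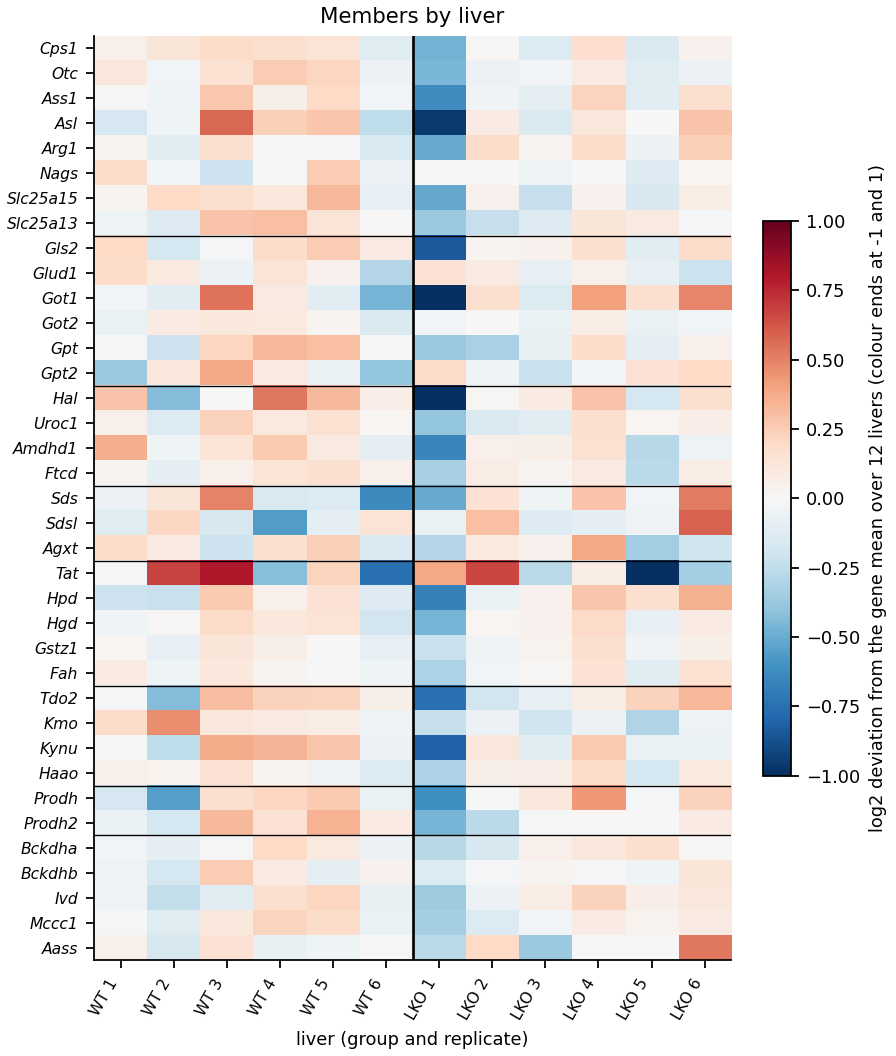
Each cell is the log2 deviation of one gene in one liver from that gene's mean over the 12 livers, blue below and red above, with the WT livers left of the vertical line, the LKO livers right of it and horizontal lines between pathways. The column of LKO replicate 1 is the bluest, with the lowest value in 26 of 37 rows, and Tat, Gpt2, Glud1 and Nags are above their mean in it.

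The first steps of the urea cycle lie in the mitochondrion. Cps1, which makes carbamoyl phosphate from ammonia, ran from 5967 through a median of 7078 to 7331 CPM in WT and from 4657 through 6212 to 7282 CPM in LKO. Its groups overlapped, and the lowest value was LKO replicate 1. The log2 fold change was -0.17 ± 0.10 (SE, n = 6 and 6, adjusted p = 0.549 by edgeR), and -0.10 without LKO replicate 1. Otc (GRCm38, chrX:10252305-10321024, + strand), which joins carbamoyl phosphate to ornithine, ran from 418 through 477 to 519.8 CPM in WT and from 317 through 418 to 461 CPM in LKO. There were 4 WT livers above all LKO livers, and the 2 groups overlapped from 418 to 461 CPM. Its log2 fold change of -0.21 ± 0.09 (95% interval -0.40 to -0.02) had an unadjusted p of 0.0291 and an adjusted p of 0.354 by edgeR. Nags makes N-acetylglutamate, the activator that Cps1 needs, and was the least abundant gene of the cycle. It ran from 56.8 through 64.7 to 78.2 CPM in WT and from 59.8 through 65.4 to 66.4 CPM in LKO. The LKO livers lay within the WT range (log2 fold change -0.06 ± 0.07). Slc25a15 (GRCm38, chr8:22375551-22398597, - strand), the ornithine and citrulline carrier of the inner membrane, ran from 449 through 522 to 599.6 CPM in WT and from 335 through 458 to 500.2 CPM in LKO. Its groups overlapped, with 2 WT livers below the highest LKO liver and LKO replicate 1 lowest. The log2 fold change was -0.24 ± 0.10 (95% interval -0.46 to -0.03, unadjusted p = 0.0302, adjusted p = 0.359 by edgeR). Without LKO replicate 1 the log2 fold changes of Otc and Slc25a15 were -0.15 and -0.17, with adjusted p of 0.428 and 0.439 by edgeR.

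Citrulline leaves the mitochondrion, and the remaining steps are cytosolic. Ass1, which condenses citrulline with aspartate, ran from 2232 through 2355 to 2778 CPM in WT and from 1493 through 2208 to 2692 CPM in LKO. Its log2 fold change was -0.14 ± 0.12 and -0.04 without LKO replicate 1. Asl, which cleaves argininosuccinate to arginine and fumarate, ran from 482 through 618 to 855 CPM in WT and from 295 through 591 to 701 CPM in LKO, the widest of the enzymes of the cycle in both groups. The log2 fold change of -0.19 ± 0.18 became -0.06 without LKO replicate 1. Arg1, which releases urea from arginine, was the one gene of the 8 with a higher mean in LKO. It ran from 1567 through 1737 to 1949.8 CPM in WT and from 1225 through 1875 to 2056 CPM in LKO. Both the highest and the lowest of the 12 livers were LKO (log2 fold change 0.04 ± 0.11, and 0.13 without LKO replicate 1). Slc25a13, the aspartate and glutamate carrier that supplies Ass1 with aspartate, averaged 287 ± 35.3 CPM (SD, n = 6) in WT and 253 ± 32.9 CPM in LKO (log2 fold change -0.18 ± 0.10, adjusted p = 0.509 by edgeR). The groups overlapped in all 8 genes, as the plot of the urea cycle by liver shows.

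**Figure D4:**
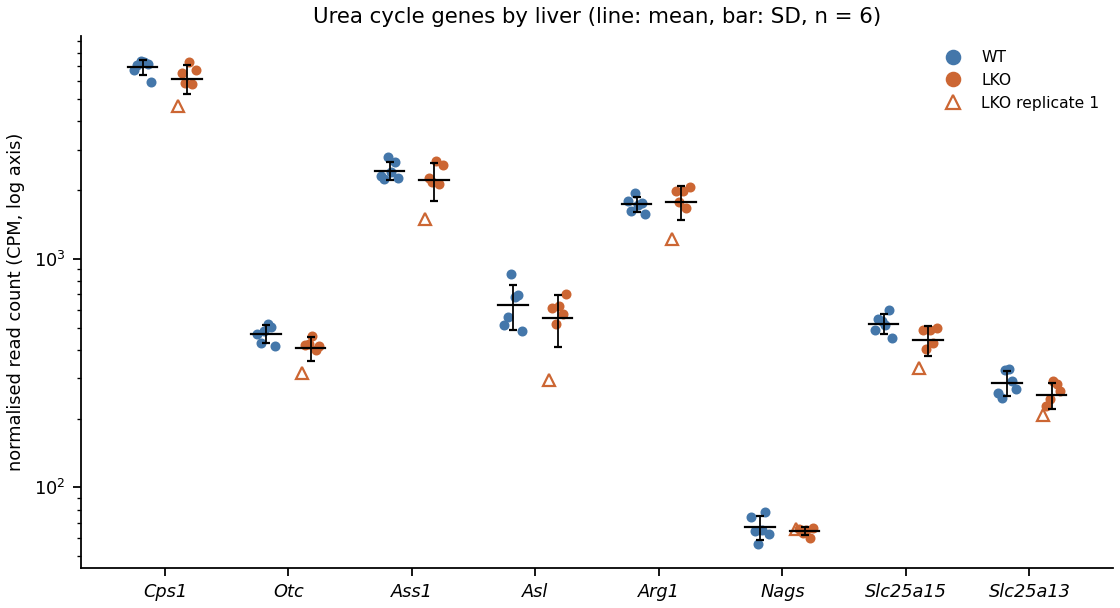
Normalised read counts in CPM on a log axis for the 8 urea cycle genes, with WT livers in blue and LKO livers in orange, the mean as a horizontal line and the SD as a bar (n = 6 each). LKO replicate 1, the open triangle, is the lowest liver in 7 of the 8 genes, and Nags is the exception.

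Per kilobase of the principal transcript in WT, Ass1 stood at 1437 ± 132, Cps1 at 1242 ± 91.4 and Arg1 at 1173 ± 91.0 CPM per kb (SD, n = 6), so that Cps1 and Arg1 were within their spread of each other. Asl followed at 261 ± 58.2, Otc at 203.0 ± 17.6, Slc25a15 at 152 ± 15.1, Slc25a13 at 91.9 ± 11.3 and Nags at 33.0 ± 3.90 CPM per kb, and Asl and Otc differed by about the spread of Asl. The order of Ass1 and Cps1 depends on the length used. Per kilobase of all annotated exons merged, Cps1 stood at 1242 and Ass1 at 1009 CPM per kb, and the order of the others was the same. The 250 bases before the RefSeq start of Otc (GRCm38.p6, chrX:10252055-10252304, + strand) are shown because Otc was the enzyme of the cycle with the lowest p, and none of the 7 motifs searched, given further on, lies in them.
Otc: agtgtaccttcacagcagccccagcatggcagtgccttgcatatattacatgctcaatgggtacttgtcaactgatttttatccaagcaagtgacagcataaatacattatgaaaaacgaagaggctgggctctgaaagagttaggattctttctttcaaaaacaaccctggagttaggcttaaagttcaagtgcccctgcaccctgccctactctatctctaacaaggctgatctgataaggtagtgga

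Genes that feed nitrogen into the cycle were divided. Gls2, the liver glutaminase, averaged 386 ± 41.1 CPM (SD, n = 6) in WT and 348 ± 76.4 CPM in LKO. LKO replicate 1 held 202.0 CPM, 0.509 of the WT median, and without it the log2 fold change moved from -0.15 to -0.03. Glud1, glutamate dehydrogenase, averaged 1087 ± 123 CPM in WT and 1058 ± 95.7 CPM in LKO, and LKO replicate 1 was its second highest liver at 1177 CPM. Of the aspartate transaminases, mitochondrial Got2 varied little, at 189 ± 13.0 CPM in WT and 184 ± 6.66 CPM in LKO (log2 fold change -0.04 ± 0.06). Cytosolic Got1 varied widely, from 366 to 739 CPM in WT and from 251 to 708 CPM in LKO (log2 fold change 0.07 ± 0.21, and 0.21 without LKO replicate 1). The alanine transaminase Gpt averaged 259.6 ± 37.2 CPM in WT and 225 ± 33.0 CPM in LKO (log2 fold change -0.21 ± 0.11, adjusted p = 0.493 by edgeR). Without LKO replicate 1 its log2 fold change was -0.16. Its mitochondrial counterpart Gpt2 averaged 724 ± 150.0 CPM in WT and 756 ± 85.9 CPM in LKO (log2 fold change 0.06 ± 0.12). As a ratio per kilobase of principal transcript within a liver, Gpt2 over Gpt had a median of 1.22 in WT (1.15 to 1.88) and 1.72 in LKO (1.30 to 2.22), and the ranges overlapped. Got1 over Got2 had medians of 3.17 and 3.82, again with overlapping ranges of 2.67 to 4.52 and 1.69 to 4.75. LKO replicate 1 gave the highest LKO ratio of Gpt2 over Gpt and the lowest of Got1 over Got2.

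All 4 histidine genes had lower means in LKO, and LKO replicate 1 was the lowest liver in each of them. Hal, histidine ammonia-lyase, which opens the pathway, ran from 323 through 494 to 631 CPM in WT and from 202 through 451 to 532 CPM in LKO. Amdhd1, imidazolonepropionase, ran from 186 through 215 to 255 CPM in WT and from 126 through 199 to 221.0 CPM in LKO. Groups of both genes overlapped. The log2 fold changes were -0.22 ± 0.20 for Hal and -0.22 ± 0.12 for Amdhd1, with adjusted p of 0.717 and 0.507 by edgeR. Without LKO replicate 1 they were -0.08 and -0.13. Uroc1, urocanate hydratase, averaged 534 ± 45.8 CPM (SD, n = 6) in WT and 488 ± 63.8 CPM in LKO (log2 fold change -0.13 ± 0.09). Ftcd, which passes the formimino group to tetrahydrofolate, averaged 474 ± 28.5 CPM in WT and 441 ± 55.5 CPM in LKO (log2 fold change -0.10 ± 0.08). Without LKO replicate 1 the values were -0.07 for Uroc1 and -0.05 for Ftcd.

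Serine dehydratases deaminate serine to pyruvate and had higher means in LKO. Sds averaged 218 ± 55.9 CPM (SD, n = 6) in WT and 236 ± 54.3 CPM in LKO (log2 fold change 0.12 ± 0.18). Sdsl, the least abundant of all 37 genes, ran from 8.89 to 15.1 CPM in WT and from 12.0 to 19.7 CPM in LKO, and its log2 fold change of 0.19 ± 0.14 was the highest of the list (adjusted p = 0.646 by edgeR). Agxt, which detoxifies glyoxylate in the peroxisome, averaged 245 ± 30.5 CPM in WT and 230 ± 46.1 CPM in LKO (log2 fold change -0.09 ± 0.12). Without LKO replicate 1 the log2 fold changes were 0.21 for Sds, 0.23 for Sdsl and -0.04 for Agxt. Per kilobase, Sds exceeded Sdsl by a median of 19.4 times in WT and 18.9 times in LKO.

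Tyrosine breakdown held both the most and the least variable gene among WT livers. Tat, tyrosine aminotransferase, the first step and a classical glucocorticoid-induced gene, ran from 1189.9 through 2145 to 3478 CPM in WT and from 982 through 1876 to 3160 CPM in LKO. The coefficient of variation was 40.2% in WT and 38.8% in LKO, and the log2 fold change of -0.17 ± 0.29 had a 95% interval of -0.78 to 0.44. High and low livers occurred in both groups, and LKO replicate 1, low in most other genes, was above the mean of either group for Tat at 2599 CPM. Fah, fumarylacetoacetase, the last step, averaged 608 ± 26.7 CPM (SD, n = 6) in WT and 592 ± 68.9 CPM in LKO, with coefficients of variation of 4.38% and 11.6%. Its log2 fold change was -0.04 ± 0.08 and its 95% interval -0.20 to 0.13. Between them lie Hpd (1855 ± 259.9 and 1931 ± 434 CPM), the hydroxyphenylpyruvate dioxygenase, Hgd (591 ± 55.0 and 566 ± 82.2 CPM), the homogentisate dioxygenase, and Gstz1 (656 ± 36.2 and 653 ± 56.3 CPM), the maleylacetoacetate isomerase, WT before LKO in each. The log2 fold changes of these 3 genes were 0.06, -0.06 and -0.01, and 0.17, 0.01 and 0.03 without LKO replicate 1. The 250 bases before the RefSeq start of Tat (chr8:109990186-109990435, + strand, GRCm38.p6) are shown because Tat was the most variable gene, with capitals marking the CCAAT box on either strand (CCAAT or ATTGG), which lies there 3 times and was the one motif found.
Tat: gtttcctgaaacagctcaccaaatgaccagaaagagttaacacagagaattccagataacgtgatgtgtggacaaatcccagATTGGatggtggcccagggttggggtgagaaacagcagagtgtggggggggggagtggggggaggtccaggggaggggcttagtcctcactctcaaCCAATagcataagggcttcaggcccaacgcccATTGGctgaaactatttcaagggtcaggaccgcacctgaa

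Kmo (GRCm38, chr1:175620381-175662116, + strand), kynurenine 3-monooxygenase of the tryptophan pathway, gave the largest difference of the 37 genes. It ran from 354.5 through 392 to 506 CPM in WT and from 297 through 335 to 354.0 CPM in LKO. Its groups did not overlap, with the lowest WT liver next to the highest LKO liver. That was 1 of 37 genes, or 2.70%, where 1.30% of all genes tested had groups that did not overlap. The log2 fold change was -0.30 ± 0.08 (95% interval -0.48 to -0.12, unadjusted p = 0.00274, adjusted p = 0.147 by edgeR's quasi-likelihood test). DESeq2 gave -0.31 with an adjusted p of 0.0330. Over all alternatives the adjusted p ran from 0.0330 to 0.281, the log2 fold change without LKO replicate 1 was -0.28, and the gap between the groups closed when values were rescaled without WT replicate 1, WT replicate 3 or LKO replicate 2. Kmo was not among the genes that were lowest in LKO replicate 1, and its lowest liver was LKO replicate 5.

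The other 3 listed genes of the pathway lie before and after Kmo. Tdo2, tryptophan dioxygenase, which opens the pathway, averaged 2135 ± 367 CPM (SD, n = 6) in WT and 1985 ± 479 CPM in LKO (log2 fold change -0.11 ± 0.16, and 0.01 without LKO replicate 1). Kynu, kynureninase, ran from 197 through 260.0 to 304 CPM in WT and from 134 through 224 to 281 CPM in LKO. Its groups overlapped, and the log2 fold change of -0.21 ± 0.15 became -0.10 without LKO replicate 1 (adjusted p = 0.637 and 0.791 by edgeR). Haao, the dioxygenase that leads to quinolinate, averaged 392 ± 25.4 CPM in WT and 387 ± 48.2 CPM in LKO (log2 fold change -0.02 ± 0.08). Of 7 further tested genes of tryptophan and NAD metabolism, 4 were lower and 3 higher in LKO. Afmid, Kyat1 and Qprt had log2 fold changes of 0.08, 0.07 and 0.03, and Acmsd of -0.15. The remaining ones, described after their values were seen, were about the size of Kmo's or beyond it. These were -0.32 ± 0.11 for Ido2, a dioxygenase of the same opening step as Tdo2, and -0.37 ± 0.14 and -0.32 ± 0.19 for Aadat and Kyat3, which convert kynurenine to kynurenic acid. None of the 7 passed the threshold. Adjusted p was 0.226 for Ido2, 0.301 for Aadat and 0.534 for Kyat3 by edgeR. The 250 bases before the RefSeq start of Kmo (GRCm38.p6, chr1:175631943-175632192, + strand) are shown as those of the one gene whose groups did not overlap, and they hold none of the motifs searched. This start lies inside the GENCODE gene, whose annotation reaches further upstream.
Kmo: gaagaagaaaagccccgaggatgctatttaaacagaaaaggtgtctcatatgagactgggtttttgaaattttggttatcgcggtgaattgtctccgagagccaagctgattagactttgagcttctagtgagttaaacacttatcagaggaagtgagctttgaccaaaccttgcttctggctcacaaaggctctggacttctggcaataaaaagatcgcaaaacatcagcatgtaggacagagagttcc

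**Figure D5:**
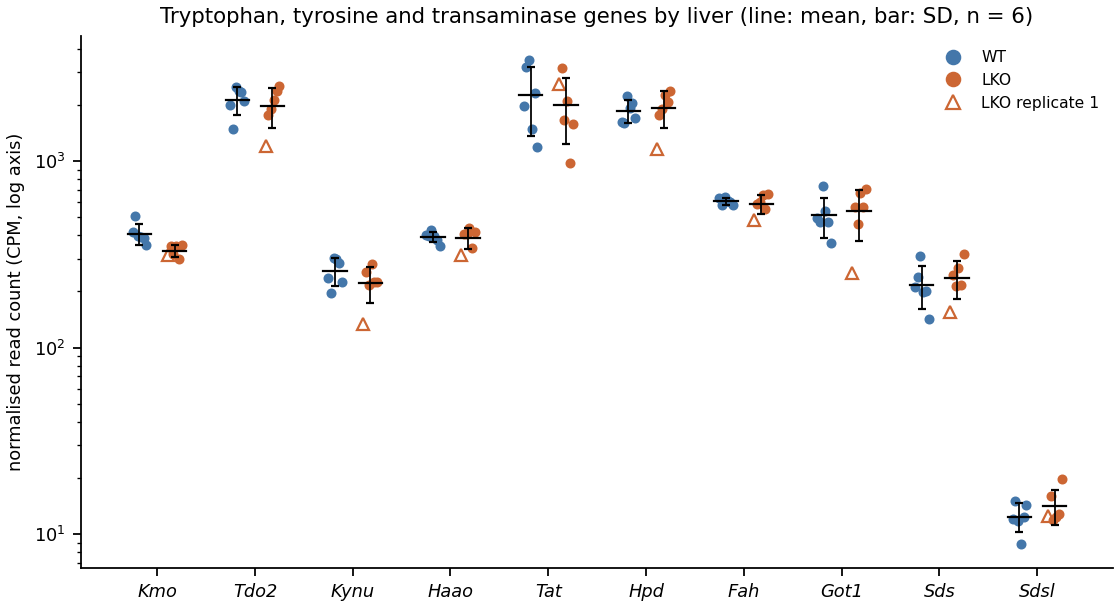
Normalised read counts in CPM on a log axis for the tryptophan genes, 3 tyrosine genes, Got1, Sds and Sdsl, with WT livers in blue, LKO livers in orange, the mean as a line and the SD as a bar (n = 6 each), and LKO replicate 1 as an open triangle. Kmo alone has LKO livers (297 to 354.0 CPM) all below the WT livers (354.5 to 506 CPM), while Tat spreads over 1189.9 to 3478 CPM in WT.

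The proline dehydrogenases gave opposite signs. Prodh averaged 201 ± 39.6 CPM (SD, n = 6) in WT and 209.5 ± 46.7 CPM in LKO, with a log2 fold change of 0.06 ± 0.16, and 0.16 without LKO replicate 1. Prodh2, which oxidizes hydroxyproline, ran from 150.2 through 183 to 215 CPM in WT and from 123 through 168 to 179 CPM in LKO. There were 3 WT livers above the highest LKO liver, and the log2 fold change was -0.22 ± 0.11 (unadjusted p = 0.0604, adjusted p = 0.453 by edgeR). Branched chain amino acid and lysine genes were close to even. Bckdha and Bckdhb, the E1 subunits of the branched chain keto acid dehydrogenase, averaged 45.0 ± 3.49 and 70.9 ± 7.56 CPM in WT and 44.0 ± 4.92 and 69.6 ± 4.10 CPM in LKO. Ivd, isovaleryl-CoA dehydrogenase of leucine breakdown, averaged 221 ± 26.4 and 225 ± 29.7 CPM, Mccc1, a subunit of methylcrotonyl-CoA carboxylase, 56.3 ± 5.43 and 52.6 ± 5.67 CPM, and Aass, which begins lysine breakdown, 555 ± 41.5 and 577 ± 134 CPM, in WT and LKO. The log2 fold changes of these 5 genes lay between -0.10 and 0.06.

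Spread between livers was larger in LKO for 28 of the 37 genes, with a median coefficient of variation of 14.7% against 11.8% in WT. Over all 1381 genes at 100 CPM or more the medians were 9.67% and 9.41%, and 51.2% had the larger value in LKO. Without LKO replicate 1 the median of the 37 genes in LKO was 9.40%, and 13 of them exceeded WT. After Tat, the most variable genes in WT were Sds (25.7%), Got1 (24.2%), Asl (22.3%) and Hal (21.9%), named here after their values were seen. WT replicate 3 was the highest WT liver for Tat, Sds, Got1 and Asl, and WT replicate 6 the lowest for the same genes.

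A further 67 genes of the same pathways were listed, and 60 of them passed the filter. None passed an adjusted p of 0.05 by edgeR, 34 were lower and 26 higher in LKO, and their median log2 fold change was -0.02. At an unadjusted p under 0.05 by edgeR there were 10 lower and 2 higher. Beside each count of this paragraph at that p, the share was 11.7% over all genes tested and 20.4% over those at 100 CPM or more. LKO replicate 1 was the lowest liver for 23 of the 60, among them 6 of the 7 detected genes of tryptophan and NAD metabolism. Ido1 and Dao had no read in any liver, and Arg2, Nos2, Tdh, Got1l1 and Bcat1 were also under the filter. Of 15 amino acid transporters none passed the threshold by edgeR, 2 had a lower and 1 a higher value at an unadjusted p under 0.05, and LKO replicate 1 was the lowest liver for 7. The 17 listed regulators of these pathways gave none past the threshold and 3 lower at an unadjusted p under 0.05. In LKO replicate 1, 4 of the 17 were at their lowest of the 12 livers, as were 30.7% of 1349 other genes at 100 CPM or more. They were the hepatic factor Cebpa, the glucocorticoid receptor Nr3c1, the glucagon receptor Gcgr and Sirt3, at 315, 89.5, 211 and 39.4 CPM. Atf4 was the 1 at its highest, at 104 CPM. These genes were named after their values were seen, and their part in the low values was not tested.

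Many of the 37 genes are periportal, and 14 periportal markers outside the list were examined beside them. Of these, 13 had a lower and 1 a higher value in LKO, beside 50.0% lower over all genes tested and 66.3% at 100 CPM or more. The median of their log2 fold changes was -0.30, against 0.00016 and -0.06 for those 2 sets. The markers that passed the threshold were 2, both lower, beside 0.428% of all genes tested. These were Pigr, the polymeric immunoglobulin receptor, at 1389 ± 96.8 CPM (SD, n = 6) in WT and 957 ± 133 CPM in LKO (log2 fold change -0.54 ± 0.09, adjusted p = 0.0171 by edgeR), and Sult5a1, a sulfotransferase, at 18.7 ± 6.51 and 5.85 ± 3.08 CPM (log2 fold change -1.69 ± 0.30, adjusted p = 0.0201 by edgeR). LKO replicate 1 was the lowest liver for both and for 9 of the 14 in all, as it was for 30.7% of 1349 other genes at 100 CPM or more. Fold changes of these markers without that liver are not given here, and its part in their lower values was not tested. Summed, the periportal markers ran from 9690 to 12271 CPM in WT and from 8693 to 11341 CPM in LKO, and the 17 pericentral markers, of which 13 were lower and none passed, from 10146 to 13066 and from 9299 to 12353 CPM. Of 8 hepatocyte markers 6 were lower and 2 higher, and none passed. Markers of Kupffer cells were higher in LKO in 10 of 10 (139.9 to 190.4 CPM summed in WT, 169.7 to 294 CPM in LKO), 9 of them at an unadjusted p under 0.05 by edgeR. Those of stellate cells were higher in 9 of 9 (179 to 276 and 211 to 321 CPM) and those of endothelial cells in 7 of 8 (181 to 241 and 197 to 241 CPM), with 1 of each at that p. None of these Kupffer, stellate or endothelial markers passed the threshold. At that p, 4 of 14 periportal, 6 of 17 pericentral and 3 of 8 hepatocyte markers were lower and none higher. The share at that p was 11.7% of all genes tested, 20.4% at 100 CPM or more and 30.6% at 500 CPM or more. The hepatocyte markers all averaged above 500 CPM. Cholangiocyte markers were higher in 3 and lower in 3 (37.8 to 64.4 and 34.3 to 130.5 CPM), T and NK cell markers were higher in 5 of 5 (0.553 to 1.65 and 0.973 to 2.15 CPM), and none of either passed. In the B cell list Ighm passed, lower in LKO (log2 fold change -1.78 ± 0.12, adjusted p = 4.06e-06 by edgeR), and the other 4 were higher and did not pass. Cela1 of the kidney and pancreas list passed, lower in LKO (log2 fold change -0.97 ± 0.16, adjusted p = 0.0107 by edgeR), while the other genes of that list were under the filter on low counts. The part of cell composition in the values of the 37 genes was not tested.

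RefSeq promoter windows (GRCm38.p6) were found for 29 of the 37 genes, in 32 windows, and motifs were searched on both strands in the 250 bases before the start. The CCAAT box (CCAAT) was in 43.8% of these windows and in 33.8% of all 32851 windows, the TATA box (TATAAA) in 15.6% and 12.4%, the C/EBP motif (TTGCNNAA) in 12.5% and 9.56%, the short form of the cAMP response element (TGACG) in 12.5% and 17.8% and the glucocorticoid receptor motif (TGTTCT) in 9.38% and 16.1%. The full cAMP response element (TGACGTCA), which contains the short form, and the HNF4 motif (CAAAGTCCA) were in none of the 32 windows and in 1.55% and 0.384% of all windows. These are descriptions of letters in short windows. No window was given for Kynu, Cps1, Sdsl, Arg1, Gpt, Sds, Gls2 and Asl.

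Exons of 7 listed genes overlap genes on the opposite strand, and without a stated strand setting of the counting such reads cannot be assigned with certainty. The share of merged exon length was 61.7% for Bckdha, which overlaps B3gnt8 (mean 4.06 CPM), 21.3% for Sds, which overlaps Plbd2 (83.2 CPM), and 15.6% for Nags, which overlaps Gm11586 (0.192 CPM). For Gls2, Got2, Gstz1 and Mccc1 no single overlap exceeded 9.14%. Values of these 7 genes carry that uncertainty.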

How the data were processed

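Liver mRNA of 12 mice was sequenced, 1 library per mouse, and grouped by the genotype in the labels. Per the labels and methods, read quality was assessed with FastQC 0.11.15, trimming was done by Trimmomatic 0.36 and alignment by HISAT2 2.1.0 (GRCm38.p6, Ensembl 93), and HTSeq 0.6.1 produced gene counts. The authors deposited raw read counts per Ensembl gene, without normalization. Strand setting and overlap mode are not given in the sources used here.

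The counts, after TMM scaling, entered a quasi-likelihood fit in edgeR 4.0.16 (R 4.3.3) with genotype as its only term. Genes that reached 3 reads in 6 livers or more were fitted, p-values were adjusted by Benjamini-Hochberg and the threshold was 0.05. The script was tested on simulated data. CPM are TMM-scaled, and SD are between livers. Without molecular identifiers, depth covers counting error only. Alternatives used RLE scaling, scaling without the 20 most abundant genes, other filters, limma 3.58.1 (voom), DESeq2 1.42.0, a replicate block and leaving out each liver. Symbols, coordinates and lengths came from GENCODE M21.

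The 37 genes and the lists were chosen with earlier results of these data known. Named in full were the 5 urea cycle enzymes with Nags, genes with separate groups or an unadjusted p under 0.05, and the largest log2 fold changes up to 12 genes in all. The others are given by mean or range.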

Additional observations from a re-analysis of the deposited data

Results flagged for a closer look

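Each of the 37 genes was searched in each group of 6 for a liver far from the other 5, by Dixon's ratio of the gap beside that liver to the whole spread of the group at the 95% level. Of 74 groups searched, 1 exceeded it, where chance gives about 1 in 20. This was Gls2, the liver glutaminase, in LKO, where replicate 1 at 202.0 CPM lay below the other 5 livers (334.9 to 409 CPM) with a ratio of 0.641.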

How the results depend on the processing

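These genes had 132 reads or more in every liver, and the precision rested on the spread between 6 livers per group. Over all genes tested, 114 passed the threshold without a filter on low counts, 351 by DESeq2 and 38 to 132 when each liver was left out in turn. Of the 37 genes, DESeq2 called 1 (Kmo, adjusted p = 0.0330) and the other alternatives none. The count at an unadjusted p under 0.05 was 6 (16.2%) with the replicate block, against 13.3% of all genes tested under that fit, and 1 to 7 with a liver left out, lowest without WT replicate 5 or LKO replicate 1 (2.70%, against 10.1% and 11.9% of all genes tested) and highest without LKO replicate 4 (18.9%, against 11.4%). The count of genes whose groups did not overlap was 0 to 1. The median log2 fold change of the 37 genes stayed between -0.10 and -0.08 under the other settings and between -0.12 and -0.04 with a liver left out. Replicate numbers are those of the mice in the labels, which state no pairing between the groups. Whether same-numbered mice shared a litter is not given. Same-numbered livers correlated by -0.0649 to 0.135 in their deviations from the group means, 5 of 12 livers correlated best with their own number, and the block gave 97 genes past the threshold over all genes and none of the 37.

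Of 740 single log2 fold changes under alternatives, 711 kept sign and call, 1 gained a call and 28 changed sign, in 15 genes whose values as reported were at most 0.11 in size. Gstz1 was 0.0081 without a filter and 0.00045 with at least 10 reads in every liver. With a liver left out, the log2 fold change ran from -0.0053 to 0.13 for Arg1, -0.093 to 0.00052 for Glud1, -0.028 to 0.21 for Got1, -0.00026 to 0.16 for Gpt2, -0.010 to 0.17 for Hpd, -0.11 to 0.013 for Hgd, -0.042 to 0.032 for Gstz1, -0.074 to 0.015 for Fah, -0.19 to 0.0054 for Tdo2, -0.059 to 0.035 for Haao, -0.030 to 0.16 for Prodh, -0.070 to 0.016 for Bckdha, -0.061 to 0.026 for Bckdhb, -0.019 to 0.092 for Ivd and -0.062 to 0.13 for Aass. The cause was not tested.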
